A study of Mus musculus with 19 samples.

Results

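The transcripts of the 8 subunits of BLOC-1 were followed across dendritic cells of the mouse spleen labelled as wild type or as knockouts of Xbp1, alone or with Ire1, which encode a transcription factor and its activating sensor in the unfolded protein response. The members were chosen by name as the subunit genes Bloc1s1, Bloc1s2, Bloc1s3, Bloc1s4, Bloc1s5, Bloc1s6, Dtnbp1 and Snapin, and all 8 were found among the 24421 gene symbols of the count tables. Type 1 and type 2 conventional dendritic cells (cDC1 and cDC2) were sorted from C57BL6 spleens of 3 labelled genotypes, which are WT, Xbp1 KO and Xbp1-Ire1 KO. The 19 libraries form 6 groups of 3, except that cDC2 WT has 4. The WT libraries carry either of 2 names in their descriptions. Replicates 1 and 2 of each cell type are named as mice with floxed alleles of both Xbp1 and Ire1 (fl-fl), whereas replicate 3 of cDC1 and replicates 3 and 4 of cDC2 are named WT. The labels do not give the Cre driver, the deleted exons, ages, or whether each replicate came from its own animals. The p-values therefore describe variation among these libraries only, part or all of which may be technical.

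BLOC-1 is a cytosolic complex of small coiled-coil proteins that shapes tubules on early endosomes and sends cargo to melanosomes, platelet dense granules and other lysosome-related organelles. Loss of single subunits destabilises the others in mutant mice with pale coats, and mutations in several of the human genes cause forms of Hermansky-Pudlak syndrome. Bloc1s1, Bloc1s2 and Snapin also encode subunits of BORC, which couples lysosomes to kinesin transport. Bloc1s1 mRNA has a further role as a widely used reporter of IRE1 activity, because the RNase domain of IRE1 cuts it at a stem-loop like the pair that it cuts in Xbp1 mRNA.

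The stem-loops are shown because Bloc1s1 mRNA is known to be cut by IRE1 at such a site, as given above. Transcripts of GENCODE M21 (GRCm38) were searched on the sense strand for the 7-base loop CNGCAGN closed by at least 4 base pairs, with G-U pairs allowed. The loop is in capitals and each sequence has 8 bases on either side.
Bloc1s1, chr10:128920003-128920025, minus strand: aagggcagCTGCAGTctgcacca
Bloc1s4, chr5:36747995-36748017, minus strand: gtgacagaCCGCAGCtctgagcg
Xbp1, upstream site, chr11:5524268-5524290, plus strand: tgctgagtCCGCAGCactcagac
Xbp1, downstream site, chr11:5524294-5524316, plus strand: gtgcacctCTGCAGCaggtgcag
The Bloc1s1 loop lies at bases 447 to 453 of the 550-base transcript Bloc1s1-201, in coding sequence of exon 4 of 4. The Bloc1s4 loop lies at bases 642 to 648, in the coding sequence of its single-exon transcript, and the other 6 subunits had 0 matches. Among 640 transcripts within 20% of the length of Bloc1s1-201, 2.34% held such a stem-loop, against 4.97% of 2654 around the length of Bloc1s4-201 and 11.4% of all 21901. The requirement for 4 pairs was set after Bloc1s1 was found to have 0 matches with 5, a setting at which both Xbp1 sites still matched. With 5 pairs the other subunits had 0 matches too. The match in Bloc1s1 was thus fixed by the choice of setting and cannot show that Bloc1s1 differs from the other subunits. A match describes letters and not a cleavage site. The coding transcripts of Bloc1s1 differed in it, since Bloc1s1-202 kept the stem-loop and Bloc1s1-205 lacked it, and the gene counts do not separate them. The bare hexamer CTGCAG, without a stem, occurred 4 times each in Bloc1s1 and Dtnbp1, 3 times each in Bloc1s5 and Bloc1s6 and 2 times in Bloc1s3. It occurred 0 times in Bloc1s2, Bloc1s4 and Snapin. Of transcripts of like length, 40.2% held it for Bloc1s1 and 51.8% to 96.2% for the other subunits.

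Library totals, in units of 1e6 counts, ranged from 10.61 to 16.21. Markers of the sort followed the labels. The cDC1 marker Xcr1 ranged from 813 to 1280 CPM (counts per 1e6 counts) in cDC1 and from 5.66 to 19.5 in cDC2, and the cDC2 marker Sirpa from 5.31 to 68.0 and from 1300 to 1700. The third replicate of cDC1 Xbp1 KO stood apart by transcripts of another organ, since 10 pancreatic acinar genes together reached 1850 CPM there, against no more than 8.45 CPM elsewhere. Counts of the whole Xbp1 and Ern1 genes do not test the genotype labels, because the deleted exons are not known. Xbp1 lay at 174 ± 51.7 CPM in cDC1 WT, 99.2 ± 12.1 in Xbp1 KO and 330 ± 26.3 in Xbp1-Ire1 KO (SD, n = 3 each). In cDC2 it lay at 103 ± 40.5 CPM in WT (n = 4), 47.8 ± 7.99 in Xbp1 KO and 66.2 ± 10.7 in Xbp1-Ire1 KO (n = 3 each). Ern1, which encodes IRE1, lay at 24.9 ± 3.54, 30.6 ± 3.37 and 60.8 ± 10.4 CPM in the same order in cDC1, and at 26.4 ± 4.70, 28.1 ± 2.21 and 24.6 ± 5.44 CPM in cDC2. Both genes were thus higher than WT in the cDC1 libraries labelled Xbp1-Ire1 KO (0.93 ± 0.18 for Xbp1 and 1.29 ± 0.17 for Ern1, edgeR adjusted p = 0.00629 and 0.000467). In cDC1 Xbp1 KO, Xbp1 was called lower than WT by edgeR (−0.81), a call lost under 4 of 18 alternatives. For the reason given, neither result bears out or contradicts a label. For Ern1 in cDC2 the groups overlapped. The knockouts are therefore named throughout as the labels name them. Sums of 3 monocyte markers were 112 to 188 CPM in cDC1 Xbp1 KO, against 48.7 to 74.5 in WT and 44.5 to 166 in Xbp1-Ire1 KO, and their part in the results was not tested.

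Bloc1s1 transcript fell in the cDC1 libraries labelled Xbp1 KO. The 3 cDC1 WT libraries held 383, 335 and 406 Bloc1s1 counts, or 31.8, 25.3 and 31.9 CPM scaled by trimmed mean of M values (TMM). The 3 cDC1 Xbp1 KO libraries held 24, 34 and 30 counts, or 1.96, 2.98 and 2.48 CPM. Every cDC1 Xbp1 KO library thus lay below every WT library, as was the case for 16.4% of all tested genes, with Poisson 95% intervals for the counts, which cover counting error only, of 15.4 to 35.7, 23.5 to 47.5 and 20.2 to 42.8. The log2 fold change was −3.58 ± 0.25 (SE), a 12-fold lower level, with a 95% interval of −4.11 to −3.06 and an adjusted p of 1.348e-06 in edgeR's quasi-likelihood test. It was the 14th lowest fold change of 11353 genes tested. In bulk RNA, less transcript per cell cannot be told apart from fewer cells that carry it. Without replicate 3 of Xbp1 KO, the library with acinar transcripts, the change was also −3.58, and it lay between −3.73 and −3.43 over all alternatives tried.

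In the cDC1 libraries labelled Xbp1-Ire1 KO, in which both targeted transcripts were above WT, no Bloc1s1 value was below those of WT. The 3 cDC1 Xbp1-Ire1 KO libraries held 589, 547 and 699 counts, or 52.1, 32 and 45.2 CPM. All 3 were above all 3 WT libraries, as for 12.9% of all tested genes, the nearest pair being 32 against 31.9 CPM. The difference from WT was 0.54 ± 0.20 on the log2 scale, with a 95% interval of 0.10 to 0.98, and did not pass the edgeR test over all genes (adjusted p = 0.130). Against cDC1 Xbp1 KO the level rose by 4.12 ± 0.25, or 17.4-fold (edgeR adjusted p = 3.006e-07). The comparisons among the 3 genotypes share libraries, so their values are not independent of each other.

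In cDC2 the Bloc1s1 transcript showed no such fall. The 4 cDC2 WT libraries held 30.6, 25.6, 27.5 and 32.2 CPM, the 3 Xbp1 KO libraries 26.5, 21.8 and 29.1 CPM, and the 3 Xbp1-Ire1 KO libraries 38.9, 32.2 and 28.5 CPM. The 3 groups overlapped. The Xbp1 KO difference from WT was −0.17 ± 0.16 with a 95% interval of −0.52 to 0.18 (edgeR adjusted p = 0.722), so a fall of the size measured in cDC1 lies outside the interval. The Xbp1-Ire1 KO differences were 0.20 ± 0.16 from WT and 0.37 ± 0.17 from Xbp1 KO, with edgeR adjusted p of 0.757 and 0.610.

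The response of Bloc1s1 differed between the cell types. WT cDC1 and WT cDC2 differed by 0.13 ± 0.18 for Bloc1s1, with a 95% interval of −0.25 to 0.51 (edgeR adjusted p = 0.604). When both cell types entered 1 model with an interaction term, the effect of Xbp1 KO on Bloc1s1 was lower in cDC1 than in cDC2, with a difference of −3.42 ± 0.29 (edgeR adjusted p = 3.243e-07). The difference of Xbp1-Ire1 KO from Xbp1 KO was higher in cDC1 by 3.74 ± 0.30 (edgeR adjusted p = 9.492e-08). The effect of Xbp1-Ire1 KO against WT was not called different between the cell types (0.32 ± 0.26, edgeR adjusted p = 0.722).

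**Figure D1:**
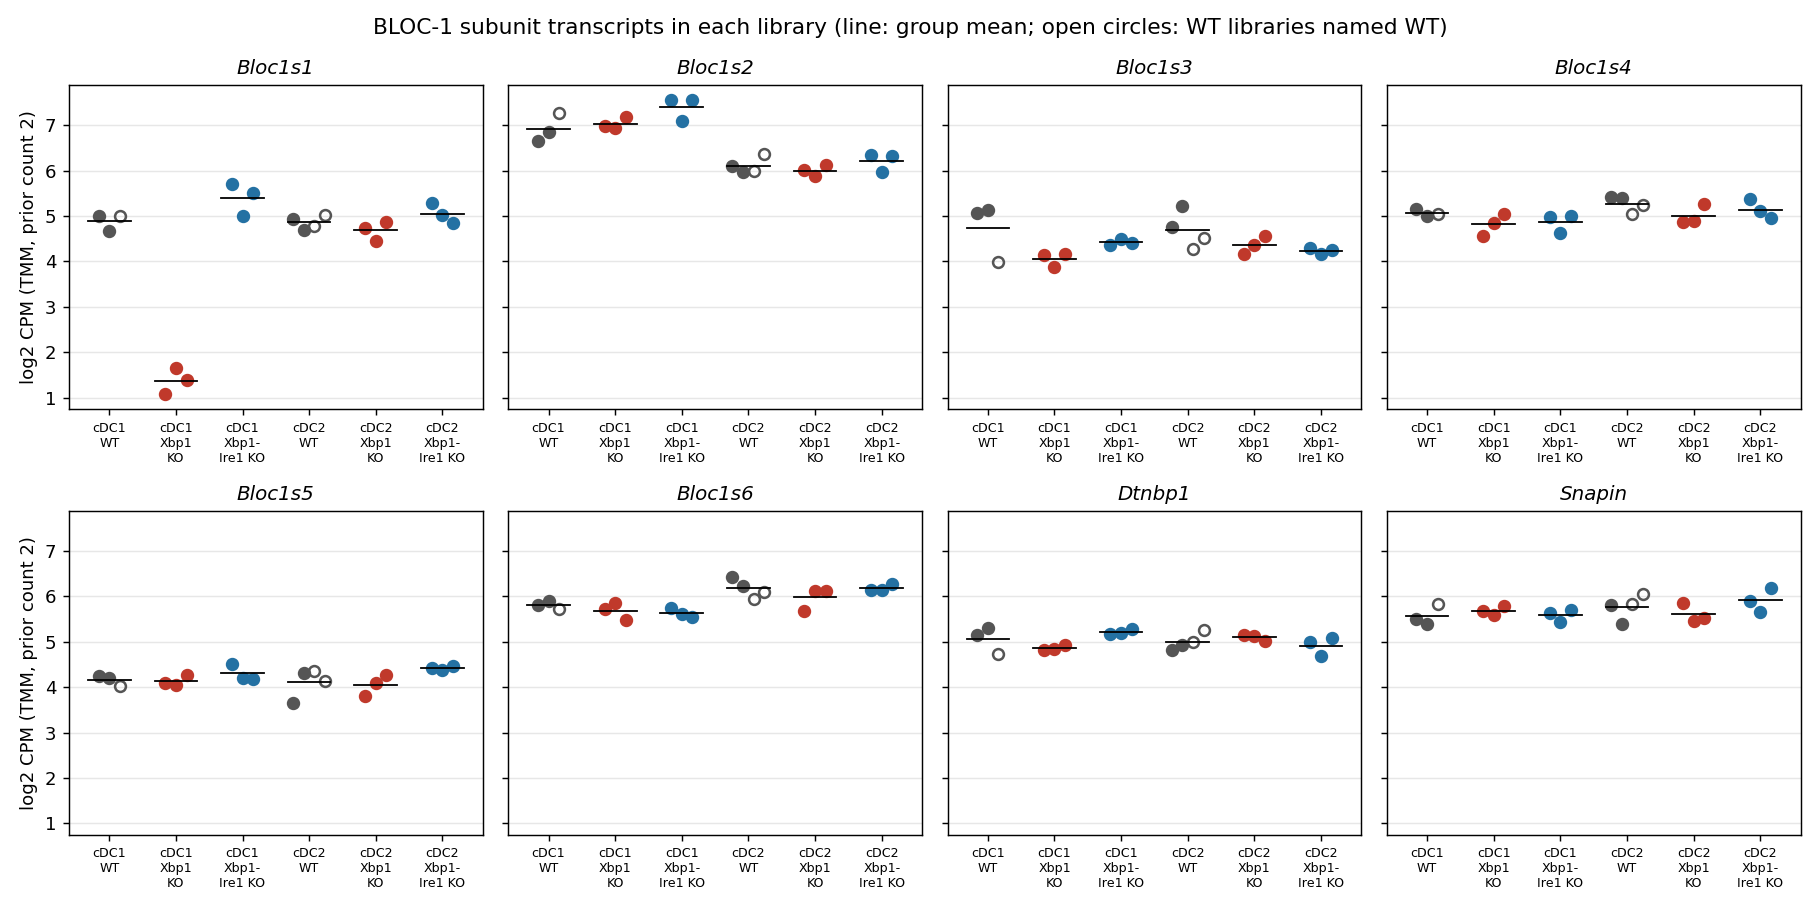
Log2 CPM (TMM, prior count of 2) of the 8 BLOC-1 subunit transcripts in each of 19 libraries, by cell type and genotype, with the group mean as a line and WT libraries named WT as open circles. Bloc1s1 sits at 1.96 to 2.98 CPM in the 3 cDC1 Xbp1 KO libraries and at 21.8 CPM or more in the other libraries, a pattern seen in none of the other 7 panels.

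The other subunits did not follow Bloc1s1. In cDC1 Xbp1 KO against WT, 1 of the 8 members was called at an adjusted p under 0.05 and 0 of the other 7, where 11.2% of all tested genes were called and 6.91% were called lower. The other 7 ranged from −0.75 for Bloc1s3 to 0.10 for Snapin, with a median of −0.11 against −0.02 over all genes tested. The lowest 95% bound of any of the 7 was −1.30, also for Bloc1s3, against an upper bound of −3.06 for Bloc1s1. The members' differences from Bloc1s1 were not tested as such. At an unadjusted p under 0.05, 1 of the 7 passed, against 28.3% of all genes.

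In the remaining genotype comparisons the other 7 subunits were not called either, over 42 tests in all with a smallest edgeR adjusted p of 0.0742. For cDC1 Xbp1-Ire1 KO against WT their differences ran from −0.40 to 0.48, with 1 of 7 at an unadjusted p under 0.05 (22.5% of all genes), and 7.75% of all genes were called. For cDC1 Xbp1-Ire1 KO against Xbp1 KO they ran from −0.09 to 0.39, with a median of 0.18 against 0.02 over all genes tested. Again 1 of 7 had an unadjusted p under 0.05 (28.5% of all genes), and 12.7% of all genes were called, with 7.13% called higher. In cDC2 their differences ran from −0.50 to 0.36 over the 3 comparisons, in which 0.103%, 0.0258% and 0.0343% of genes were called, so few genes of any kind were called. There Bloc1s3 in Xbp1-Ire1 KO against WT (−0.50 ± 0.21) was the 1 test of the 7 with an unadjusted p under 0.05, against 9.68%, 7.53% and 8.24% of all genes. The median of the 7 in cDC2 was −0.16 for Xbp1 KO against WT, −0.0024 for Xbp1-Ire1 KO against WT and 0.19 between the knockouts. Over all genes it was −0.02, −0.0018 and 0.0014 in that order. In the 3 interactions 0 of the 7 were called, against 2.17%, 2.23% and 2.14% of all genes, and 1 test, of Dtnbp1 in the comparison of the knockouts, had an unadjusted p under 0.05 (0.51 ± 0.23, edgeR adjusted p = 0.339). Over all genes, 12.9%, 12.5% and 13.2% passed at that level. DESeq2 called 1 of the 7 in 1 genotype comparison, Bloc1s3 in cDC1 Xbp1 KO against WT.

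**Figure D2:**
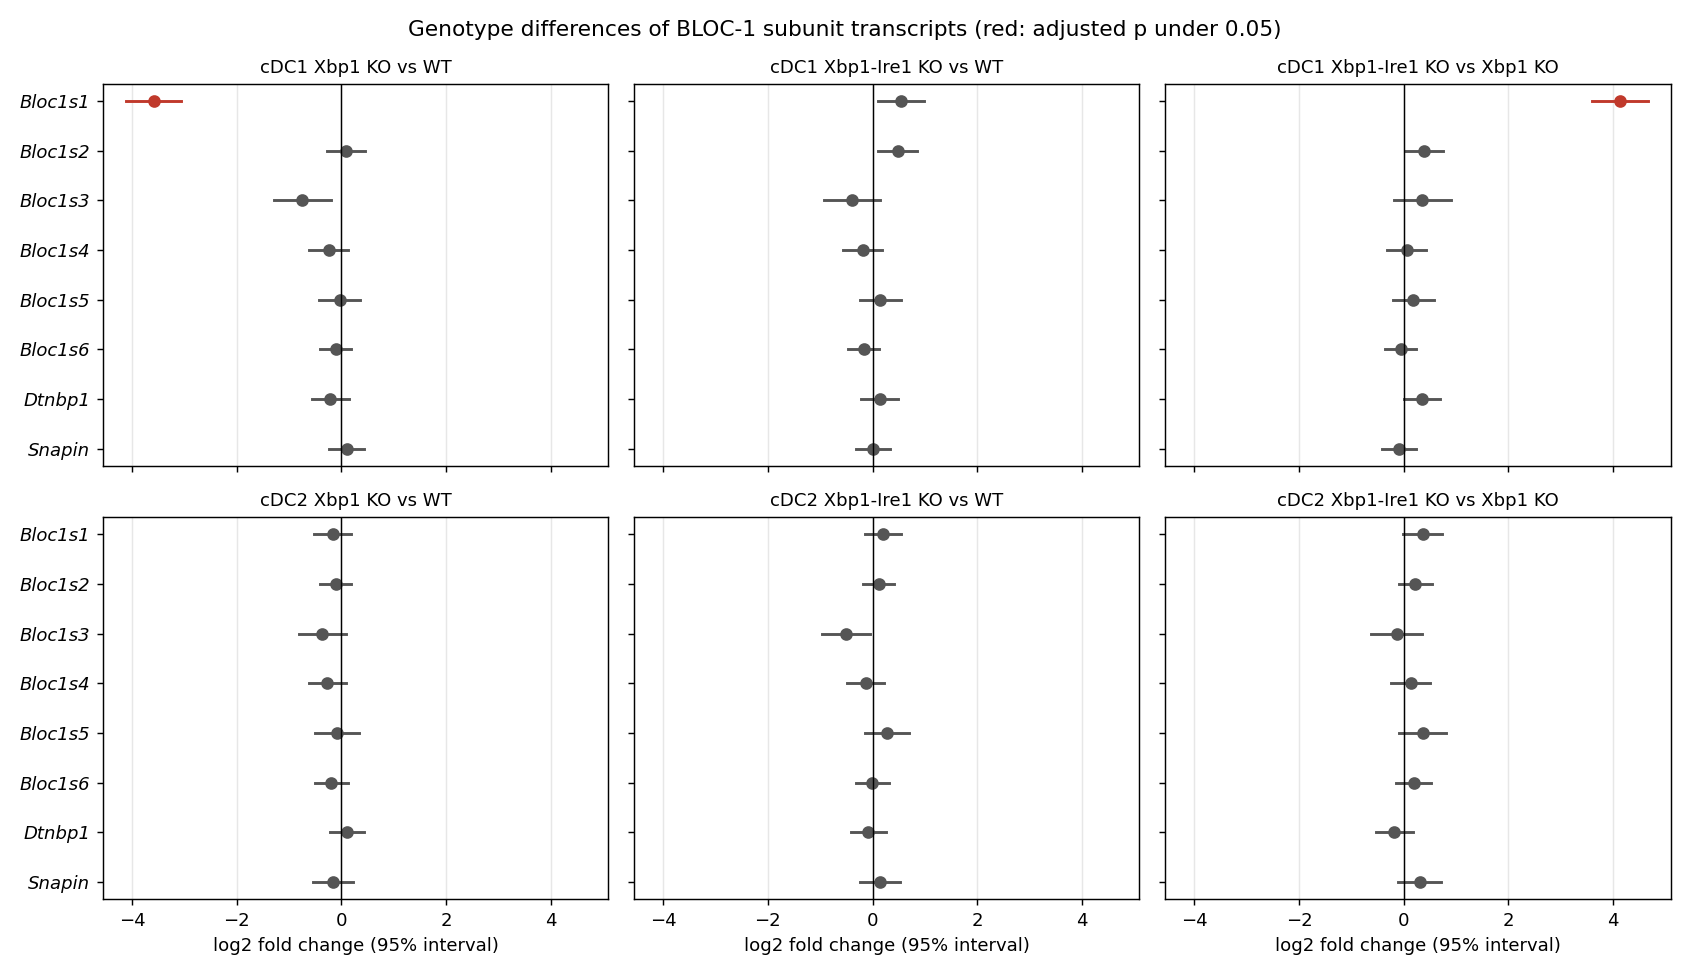
Log2 fold changes with 95% intervals for the 8 subunits in the 6 genotype comparisons, from edgeR fits of the 3 genotypes of a cell type, with red for an adjusted p under 0.05. The 2 red points are Bloc1s1 in cDC1, at −3.58 for Xbp1 KO against WT and at 4.12 for Xbp1-Ire1 KO against Xbp1 KO.

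Among the subunits shared with BORC, Bloc1s2 was the member that differed between the cell types. In the 3 WT libraries of cDC1, Bloc1s2 (chr19:44139246-44146446, minus strand, GRCm38 as for the other members) measured 99.7, 116 and 153 CPM, against 68.3, 62.5, 63.1 and 82.3 CPM in the 4 of cDC2, each scaled within its cell type. All cDC1 values were above all cDC2 values, as for 20.5% of all genes. The difference was 0.93 ± 0.16, a 1.90-fold higher level in cDC1 (edgeR adjusted p = 6.467e-05), in a comparison in which 40.8% of all genes were called. The other 7 members, Bloc1s1 included, ranged from −0.29 to 0.18 between the WT cell types and were not called. The cDC1 Xbp1-Ire1 KO libraries gave 189, 137 and 187 CPM for Bloc1s2, overlapping WT, with a difference of 0.48 ± 0.17 that was not called (edgeR adjusted p = 0.108). It was called without cDC1 WT replicate 3, that is, with the fl-fl WT libraries alone (0.66, edgeR adjusted p = 0.00917).

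Snapin (chr3:90488026-90491033, minus strand) encodes a SNARE-binding subunit that also belongs to BORC, and its groups overlapped in all 6 genotype comparisons. Its group means ran from 47.9 ± 7.98 CPM in cDC1 WT to 60.9 ± 11.2 CPM in cDC2 Xbp1-Ire1 KO (SD, n = 3 each). Its difference for cDC1 Xbp1-Ire1 KO against WT was 0.0042 ± 0.15. Snapin overlaps Ilf2 by 354 bases on the opposite strand, and whether counting used strand is not given in the sources used here. Ilf2 was not called in any of the 6 genotype comparisons.

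Bloc1s3 (chr7:19504486-19508367, minus strand), whose loss gives the reduced pigmentation mouse, separated the WT libraries by name. It lay at 33.6 and 34.7 CPM in the fl-fl cDC1 libraries and at 15.8 CPM in the cDC1 library named WT. In cDC2 it lay at 26.8 and 37.1 CPM in the fl-fl libraries and at 19.3 and 22.8 CPM in those named WT. The fl-fl libraries were thus the highest in both cell types, above all 12 knockout libraries, which ran from 14.5 to 23.4 CPM. The cDC1 Xbp1 KO libraries held 17.6, 14.5 and 17.9 CPM, on either side of the library named WT. Bloc1s6 and Snapin also separated the WT libraries by name in both cell types. For Bloc1s6 the fl-fl libraries were higher, at 55.6 to 59.1 against 52.5 CPM in cDC1 and 74.7 to 86.0 against 61.7 to 68.6 in cDC2. For Snapin they were lower, at 41.8 to 45.0 against 56.9 CPM and 41.6 to 55.8 against 56.7 to 66.6.

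The call for Bloc1s3 in cDC1 Xbp1 KO therefore depends on which WT libraries are used. Against all 3 WT libraries the difference was −0.75 ± 0.25 and was not called (edgeR adjusted p = 0.0742). Against the fl-fl libraries alone, which is also the fit without WT replicate 3, it was −1.02 (edgeR adjusted p = 0.000632), and against the library named WT alone it was 0.092 (0.892). DESeq2 and edgeR without a count filter called it as well, at −0.73 and −0.74, with adjusted p of 0.0441 and 0.0440. In cDC1 Xbp1-Ire1 KO, which held 20.5, 22.4 and 21 CPM, the difference was −0.40 ± 0.25 (edgeR adjusted p = 0.382), −0.69 against fl-fl (0.0125 by the same test) and 0.44 against the library named WT (0.374). The labels do not say what else differs between the WT names.

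The subunits known from other pigment mutants were not called in any comparison. Bloc1s4 (chr5:36747378-36748650, minus strand), which encodes cappuccino, ran from 23.3 to 35.7 CPM over the 9 cDC1 libraries and from 29.0 to 42.9 CPM over the 10 cDC2 libraries. Its difference in cDC1 Xbp1 KO was −0.24 ± 0.17, with a 95% interval of −0.61 to 0.13. Its transcript holds a stem-loop of the searched form, and whether that site is cut was not tested. Bloc1s5 (chr13:38592842-38635109, minus strand), which encodes muted, had cDC1 means of 17.8 ± 1.38, 17.4 ± 1.43 and 19.8 ± 2.60 CPM in WT, Xbp1 KO and Xbp1-Ire1 KO (SD, n = 3 each). In cDC2 its Xbp1-Ire1 KO libraries, at 20.6 to 21.9 CPM, were all above WT and Xbp1 KO, but the differences of 0.28 ± 0.19 and 0.36 ± 0.21 were not called (edgeR adjusted p = 0.704 and 0.677). Groups lay apart in this direction for 3.02% and 8.72% of all genes in those comparisons.

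Bloc1s6 (chr2:122738503-122749475, plus strand) encodes pallidin, which binds the endosomal syntaxin Stx12, and Dtnbp1 (chr13:44922075-45002147, minus strand) encodes dysbindin. Bloc1s6 ran from 44.5 to 59.1 CPM in cDC1 and from 51.3 to 86.0 CPM in cDC2, and the WT cell types differed by −0.29 ± 0.13 (edgeR adjusted p = 0.0939). Its difference for cDC1 Xbp1 KO against WT was −0.11 ± 0.14. Dtnbp1 had cDC1 means of 33.7 ± 6.74 CPM in WT, 29.0 ± 1.10 in Xbp1 KO and 36.9 ± 1.67 in Xbp1-Ire1 KO (SD, n = 3 each). Its Xbp1-Ire1 KO libraries were all above its Xbp1 KO libraries, with a difference of 0.35 ± 0.16 that was not called (edgeR adjusted p = 0.178). Bloc1s3 lay apart the same way in that comparison (0.35 ± 0.25, edgeR adjusted p = 0.392), so that this held for 3 of the 8 members with Bloc1s1, against 18.4% of all genes. Between the cDC2 knockouts, Bloc1s6 (0.19 ± 0.16, edgeR adjusted p = 0.767) lay apart upward beside Bloc1s5, 2 of the 8 members against 8.72% of all genes, and Bloc1s1 did not.

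The order of levels was read per kilobase of merged exons, as TMM-scaled CPM per kilobase. In WT cDC1, Bloc1s2 had the highest level at 70.9 ± 15.9, followed by Bloc1s4 at 27.1 ± 1.51, Bloc1s1 at 23.7 ± 2.96, Snapin at 21.6 ± 3.59 and Bloc1s6 at 14.7 ± 0.88 (SD, n = 3 each). Dtnbp1 at 9.31 ± 1.87, Bloc1s3 at 9.06 ± 3.43 and Bloc1s5 at 2.85 ± 0.22 closed the order. Bloc1s1 and Snapin, and likewise Dtnbp1 and Bloc1s3, differed by less than the larger SD of the pair. In cDC1 Xbp1 KO, Bloc1s1 moved from rank 3 to rank 8, at 1.99 ± 0.41, below Bloc1s5 at 2.80 ± 0.23. By the length of 1 reference transcript instead of merged exons it moved from rank 2 to rank 7. In cDC1 Xbp1-Ire1 KO it stood at rank 2, at 34.4 ± 8.01, and in all 3 cDC2 groups at rank 4. By transcript length it stood at rank 2 in each of these 4 groups, and in the 3 cDC2 groups it differed from Snapin, the next above it per kilobase of merged exons, by less than the larger SD of the pair.

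**Figure D3:**
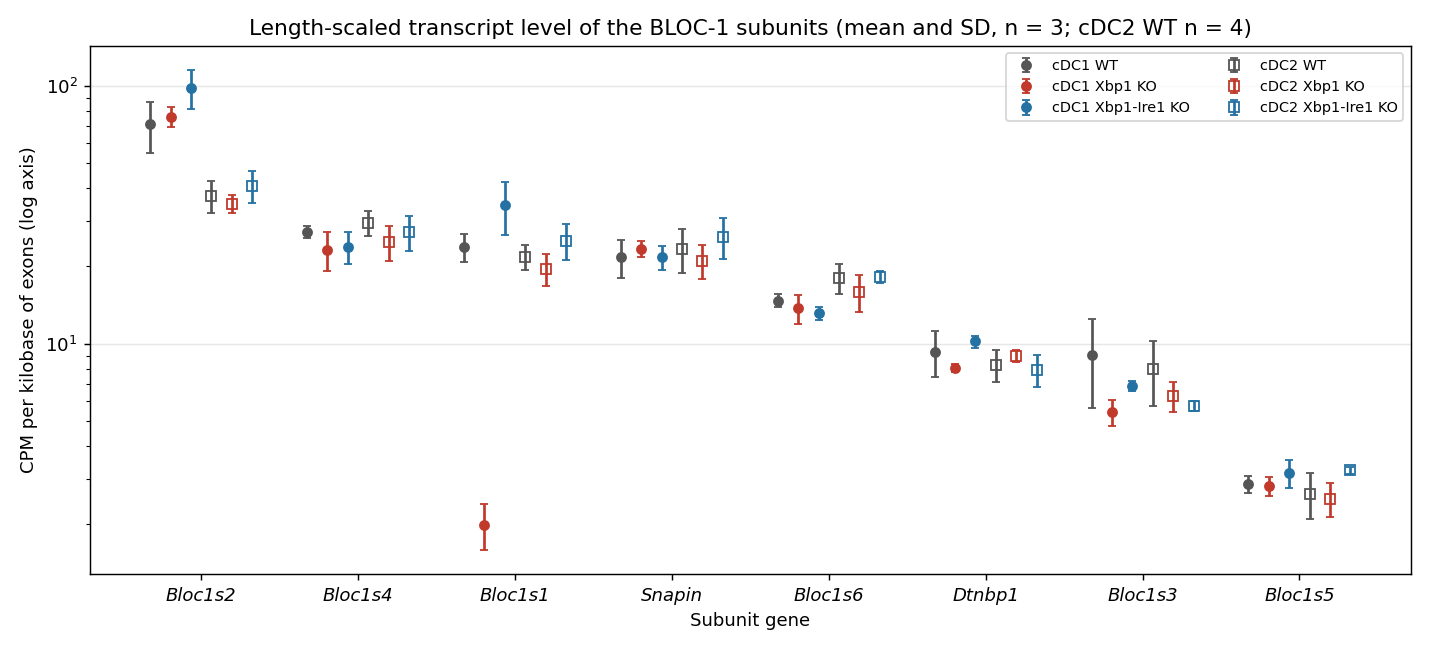
CPM per kilobase of merged exons (log axis) for each subunit, as group mean and SD (n = 3, cDC2 WT n = 4), with circles for cDC1 and squares for cDC2. Bloc1s1 in cDC1 Xbp1 KO lies at 1.99, the lowest of all points, while the 5 other groups of Bloc1s1 lie between 19.5 and 34.4.

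Among the 8 transcripts, the share of Bloc1s1 was lowest in cDC1 Xbp1 KO while the sum of the others overlapped. The other 7 subunits summed to 333 to 365 CPM in the cDC1 WT libraries, with 327 to 357 for Xbp1 KO and 340 to 411 for Xbp1-Ire1 KO. Bloc1s1 made up 6.92% to 8.95% of the sum over 8 subunits for cDC1 WT, 0.617% to 0.936% for Xbp1 KO and 8.83% to 11.5% for the Xbp1-Ire1 KO libraries. Its share in cDC2 was 7.69% to 8.80%, 7.38% to 8.95% and 7.82% to 10.7%. These shares are of counts without regard to length, so they describe how the make-up of the counts differed between groups and not the relative level of the subunits.

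Outside BLOC-1, 9 genes of BORC and its effectors were tested in cDC1. In Xbp1 KO against WT, 1 was lower and 0 were higher, against 11.2% of all genes called and 6.91% called lower. At an unadjusted p under 0.05, 5 of the 9 passed, against 28.3% of all genes, and the groups lay apart for 6 of 9, against 30.1%. Those that lay apart went both ways. Borcs5, Borcs6 and the effectors Arl8b and Plekhm2 were lower, whereas the effectors Arl8a and Kif5b were higher. The gene called lower was Borcs6 (listed as 2310047M10Rik), which encodes a BORC subunit. It had a lowest, median and highest WT value of 10.5, 20.6 and 20.6 CPM, against 4.38, 5.06 and 6.52 CPM in Xbp1 KO. The groups did not overlap, and the difference was −1.69 ± 0.30 (edgeR adjusted p = 0.00306). Against the WT library named WT alone it was −0.96 and not called (edgeR adjusted p = 0.211). Borcs5 (listed as Loh12cr1) was higher in cDC1 Xbp1-Ire1 KO than in Xbp1 KO by 0.64 ± 0.19 (edgeR adjusted p = 0.0410), a call lost under 10 of 16 alternatives, among them the fits without WT replicate 1 or 2 or without any 1 of the 6 knockout libraries (0.56 to 0.72). The count of BORC genes called in cDC1 Xbp1 KO against WT was 3 with DESeq2, 4 with the fl-fl WT libraries alone (without WT replicate 3) and 0 with the library named WT alone.

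The coats, tethers and partner complexes of the same route were mostly not called. Of the 5 subunits of BLOC-2 and BLOC-3, the 6 tested subunits of the AP-3 adaptor and the 8 of the HOPS and CORVET tethers, 0 passed in any of the 6 genotype comparisons. For Xbp1 KO against WT in cDC1, 1 gene of each of these 3 lists had an unadjusted p under 0.05, against 28.3% of all genes. The groups lay apart there for 0 of the 5, 3 of the 6 and 2 of the 8, against 30.1% of all genes. Of 13 tested Rab GTPases, SNAREs and cargo partners of lysosome-related organelles, 2 were higher and 1 was lower in cDC1 Xbp1 KO, against 11.2% of all genes called, and 6 of the 13 had an unadjusted p under 0.05. The summed monocyte markers were higher in the same libraries, as given above, and their part in these calls was not tested. Rab27a, which docks such organelles at the plasma membrane, rose from 18.1 ± 1.13 to 34.8 ± 2.13 CPM (SD, n = 3 each), a difference of 0.94 ± 0.15 (edgeR adjusted p = 0.00149). Myo5a, the myosin that works with it, rose by 0.93 ± 0.19 (edgeR adjusted p = 0.00780), a call lost against the library named WT alone (0.51, edgeR adjusted p = 0.190). Vamp8, an endosomal SNARE, fell by 0.49 ± 0.13 (edgeR adjusted p = 0.0291). That call was lost without WT replicate 1 or 2, Xbp1 KO replicate 1 or 2 or Xbp1-Ire1 KO replicate 3 (−0.51 to −0.40) and against the library named WT alone.

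In cDC1 Xbp1-Ire1 KO against Xbp1 KO, 2 of these 13 partners were lower and 0 higher, against 12.7% of all genes called. Rab27a fell by 0.57 ± 0.15 and Stx12, the syntaxin that pallidin binds, fell by 0.56 ± 0.17, with edgeR adjusted p of 0.0235 and 0.0434. The Rab27a call was lost without Xbp1 KO replicate 1 or 3 or any 1 Xbp1-Ire1 KO library (−0.60 to −0.56). The Stx12 call was lost without WT replicate 1 or any 1 of the 6 knockout libraries (−0.68 to −0.47). Of the 2 tested genes of other pigment and granule disorders, Lyst, the Chediak-Higashi gene, was 0.72 ± 0.17 higher in cDC1 Xbp1 KO than in WT (edgeR adjusted p = 0.0195). It was 0.65 ± 0.17 lower in Xbp1-Ire1 KO than in Xbp1 KO (edgeR adjusted p = 0.0264), and each of its calls was lost under 5 alternatives. These were the fits without WT or Xbp1 KO replicate 1 or 2 (0.59 to 0.68) and against the library named WT alone for the first, and without Xbp1 KO replicate 1 or 2 or any 1 Xbp1-Ire1 KO library (−0.73 to −0.54) for the second. In cDC2, edgeR with all libraries called 0 genes of these lists or of BORC in the genotype comparisons, and DESeq2 called 0 of BORC, the 13 partners and the disorder genes. At an unadjusted p under 0.05, edgeR gave 3 tests of the 9 BORC genes over the 3 comparisons. It gave 1 test of the 5 subunits of BLOC-2 and BLOC-3 and 1 of the 13 partners. Over all genes, 9.68%, 7.53% and 8.24% passed at that level in these comparisons. With the fl-fl WT libraries alone, edgeR called 1 BORC gene and 1 of the 13 partners in cDC2 Xbp1 KO and 1 BORC gene in cDC2 Xbp1-Ire1 KO against WT, where that fit called 740 and 485 genes in all. In the 3 interactions, over which 2.17%, 2.23% and 2.14% of all genes were called, 0 of the BORC and disorder genes were called. Of the 13 partners, 1 was called, for Xbp1 KO against WT. Borcs6 differed by −1.24 ± 0.40 for Xbp1 KO against WT (edgeR adjusted p = 0.144). Borcs5 differed by 0.47 ± 0.27 between the knockouts (edgeR adjusted p = 0.484). For BORC and the disorder genes, a call in cDC1 alone thus does not establish a difference between the cell types.

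Other transcripts reported elsewhere to be cut by IRE1 fell in the same libraries as Bloc1s1. Of 11 such genes beside Bloc1s1, 7 were tested in cDC1. In Xbp1 KO against WT, 5 of the 7 were lower and 0 were higher, against 6.91% of all genes called lower, with a median of −2.55 against −0.02 over all genes. Itgb2, the chain common to the beta2 integrins, fell from 416 ± 115 to 34.2 ± 2.56 CPM (SD, n = 3 each), a difference of −3.61 ± 0.19. Tapbp, the tapasin of peptide loading, fell by 3.17 ± 0.21, Hgsnat, a lysosomal acetyltransferase, by 2.81 ± 0.18, Erp44, an endoplasmic reticulum thiol protein, by 2.55 ± 0.16, and Ergic3, a cargo receptor of the early secretory route, by 1.82 ± 0.16 on the log2 scale. Their edgeR adjusted p-values ran from 3.16e-07 for Itgb2 to 6.552e-06 for Ergic3. Galnt10 and Sparc were not called (−0.26 ± 0.17 and −0.96 ± 0.58). The list was drawn up with earlier results of these libraries known, so its count is not independent evidence of its direction.

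The 5 that fell were higher in cDC1 Xbp1-Ire1 KO than in Xbp1 KO, with 0 of the 7 lower and a median of 2.72, against 7.13% of all genes called higher. Against WT, 1 of the 7 was called in cDC1 Xbp1-Ire1 KO, with Itgb2 higher by 1.09 ± 0.17 (edgeR adjusted p = 0.00131), where 7.75% of all genes were called. In cDC2, 8 were tested and edgeR called 0 in either knockout against WT. At an unadjusted p under 0.05, 1 passed in each, against 9.68% of all genes for Xbp1 KO and 7.53% for Xbp1-Ire1 KO. For Xbp1 KO against WT, DESeq2 called 1, and edgeR with the fl-fl WT libraries alone called 2, in fits that called 46 and 740 genes in all. Between the cDC2 knockouts Itgb2 was higher in Xbp1-Ire1 KO by 0.69 ± 0.10 (edgeR adjusted p = 0.0332), a call lost with the replicate block and without any 1 of the 6 cDC2 knockout libraries or WT replicate 1, 3 or 4 (0.65 to 0.71). The stem-loop search used for Bloc1s1 found 0 matches in 1 reference transcript each of Itgb2, Tapbp, Hgsnat, Ergic3 and Erp44. Its number of pairs was set on Bloc1s1, so it cannot show whether these transcripts hold a site that IRE1 cuts. The bare hexamer CTGCAG occurred 5 times in Itgb2, 2 times in Hgsnat, 1 time each in Tapbp and Erp44 and 0 times in Ergic3. Of transcripts of like length, 84.6% to 86.4% held it for the first 4 genes and 68.8% for Ergic3. Cleavage was not tested.

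**Figure D4:**
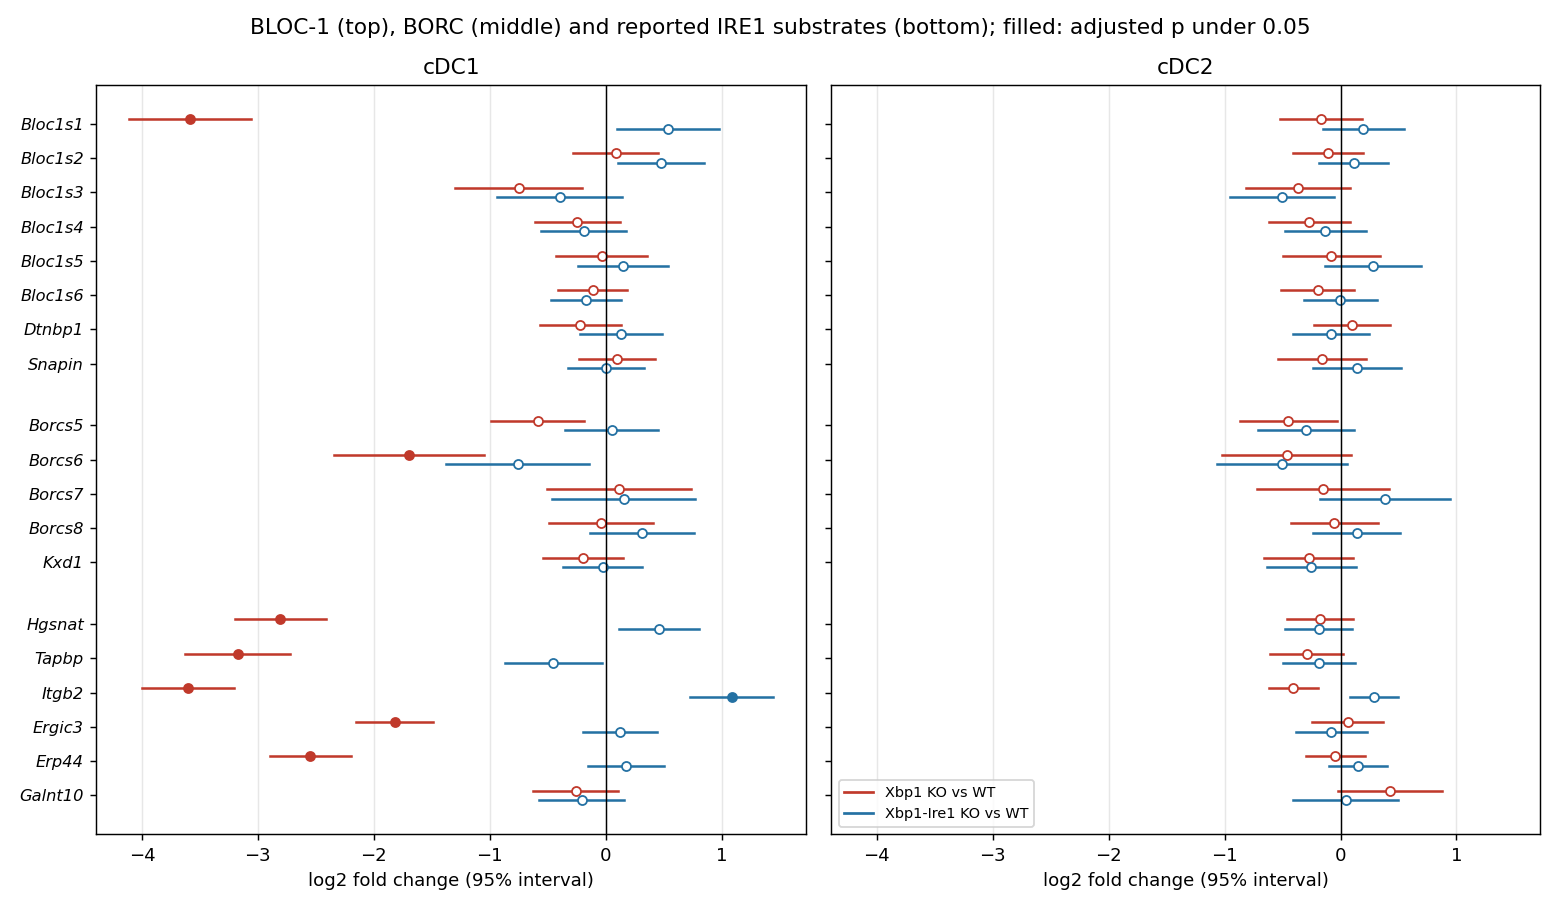
Log2 fold changes against WT with 95% intervals for BLOC-1 subunits (top), 5 further BORC subunits (middle) and 6 reported IRE1 substrates (bottom, Sparc not drawn) in cDC1 and cDC2, with red for Xbp1 KO, blue for Xbp1-Ire1 KO and filled points for an adjusted p under 0.05. In cDC1 Xbp1 KO, Bloc1s1 at −3.58 lies among the substrates, which fall to −3.61, while the other 7 subunits lie between −0.75 and 0.10.

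Of the genes beside Bloc1s1, Cd63 was the gene with enough counts to test. Bloc1s1 occupies chr10:128917882-128924035 on the minus strand of GRCm38. Rdh5, which overlaps 5007 bases of it on the same strand, held 0 to 5 counts in every library, too few to test. How counting assigned reads that fall in both genes is not given in the sources used here. Its effect on the level of Bloc1s1 relative to the other subunits is therefore not known. Cd63, the tetraspanin gene 5060 bases away, fell in both cDC1 knockouts, by 1.66 ± 0.38 in Xbp1 KO and by 2.79 ± 0.40 in Xbp1-Ire1 KO (edgeR adjusted p = 0.0148 and 0.000776). The Xbp1 KO call for Cd63 was lost without WT replicate 1 (−1.38), without Xbp1 KO replicate 2 (−1.40) and against the library named WT alone (−1.68). In Xbp1-Ire1 KO, where no Bloc1s1 value was below WT, Cd63 lay at 11.1 ± 6.53 CPM against 77.0 ± 27.8 in WT (SD, n = 3 each).

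As a description, the profile of Bloc1s1 over the 19 libraries was compared with those of 8423 genes whose average log2 CPM reached 3. The 6 most alike by Pearson's r were Slc25a17, a peroxisomal carrier (0.978), Jkamp, an endoplasmic reticulum membrane protein (0.974), BC004004 (0.971), Fgl2, a secreted fibrinogen-like protein (0.965), Tmem238 (0.965) and Alg1, an N-glycan mannosyltransferase (0.965). All points share libraries and depth. For Xbp1 KO against WT in cDC1 these 6 lay between −3.85 and −2.18. That fall follows from the choice by likeness, because Bloc1s1 was lowest in the cDC1 Xbp1 KO libraries. Over all libraries the subunits' r with Bloc1s1 ran from −0.19 for Bloc1s2 (rank 5865) to 0.39 for Bloc1s4 (rank 1141), and the order changed within a cell type. Among the 9 cDC1 libraries r ran from −0.27 for Snapin to 0.63 for Dtnbp1, with 0.34 for Bloc1s2, and among the 10 cDC2 libraries from −0.25 for Dtnbp1 to 0.70 for Bloc1s2. Ergic3, Itgb2, Tapbp, Hgsnat and Erp44 stood at ranks 7, 10, 18, 25 and 35, which rest on the same libraries as their fall given above.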

How the data were processed

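The submitters' processing notes list TopHat2 2.1.0 and the mm10 build, with Trimmomatic 0.35, FastQC 0.11.4, limma 3.42.2 and SAMtools 0.1.19. Which program and gene models gave the counts is not given in the sources used here. The deposited count tables hold raw counts per gene symbol. The log2 tables deposited by the authors hold log2 CPM, computed with 0.5 added to each count and shifted by a constant for each library. The members and gene lists were chosen with earlier results of these data known.

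The raw counts were modelled with edgeR 4.0.16 (R 4.3.3). After filterByExpr (minimum count 10, minimum total 15) and TMM scaling, each cell type was modelled with its 3 genotypes together, and quasi-likelihood F tests were adjusted by Benjamini-Hochberg over all tested genes, with calls at an adjusted p under 0.05. An approximate SE was taken from the log2 fold change and the root of F. Interactions and the comparison of WT cells used 1 model of the 19 libraries. With totals, in units of 1e6, of 10.61 to 16.21, a gene at 30 counts has a Poisson 95% interval of 20.2 to 42.8. The pipeline was tested on simulated counts.

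The text names the members, Ern1, Xbp1, up to 4 called genes per list by adjusted p (all called genes of a list of 6 or fewer), called neighbours of called members and the 6 genes most like Bloc1s1. Ergic3, Galnt10, Sparc, Ilf2, Rdh5, the BORC effectors and the sort markers fall outside this rule. RefSeq synonyms supplied 4 BORC symbols. Alternatives included DESeq2 1.42.0, DESeq2 size factors, limma 3.58.1 with trend on the deposited log2 values, no filter, a filter at 5 CPM in 3 libraries, a replicate block, a model of the compared groups only, either kind of WT library, and omission of single libraries. A lone library was taken to vary as the other groups do. The alternatives for genes outside the complex were added after the data were seen. Deviations of same-numbered libraries of different genotypes correlated over 0.1 in 3 of 9 pairs per cell type. Differently numbered libraries did so in 3 of 18 pairs in cDC1 and 2 of 24 in cDC2. The highest r was 0.234 and 0.228 for same numbers, against 0.144 and 0.149 for different numbers. Numbers were not taken to pair samples in the main fits. Whether cDC1 and cDC2 libraries came from the same mice was not checked, and the model of both cell types treated them as independent. Plots were made with matplotlib 3.10.9.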

Additional observations from a re-analysis of the deposited data

Results flagged for a closer look

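The effect of genotype on Bloc1s1 differed between the cell types by a test of the difference itself. The interaction was −3.42 on the log2 scale for Xbp1 KO against WT and 3.74 for Xbp1-Ire1 KO against Xbp1 KO, both as cDC1 minus cDC2. Among the 4 cDC2 WT libraries, the only group large enough to check, 0 of the 8 members had a library that stood apart. The check took the larger gap at either end of the group as a share of its range. With 4 libraries it flags only extreme gaps, so it cannot show that no library deviated.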

How the results depend on the processing

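For Bloc1s1, all 199 values over 10 comparisons kept their direction and their side of the threshold. With the replicate block, Bloc1s1 changed by −3.57 in cDC1 Xbp1 KO against WT, and 1211 genes were called in place of 1270. The block changed the sign of Dtnbp1 in cDC2 Xbp1-Ire1 KO against WT (0.0090) and of Snapin between WT cells (0.0044), and it ended the calls of Borcs5 and of Itgb2 between the cDC2 knockouts.

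The count of members called in cDC1 Xbp1 KO against WT was 2 in place of 1 with DESeq2, without a filter and with the fl-fl WT libraries alone, and 1 to 2 when single libraries were left out. In cDC1 Xbp1-Ire1 KO against WT it was 2 in place of 0 with the fl-fl WT libraries alone and 0 to 2 when single libraries were left out. The single library behind both ranges was cDC1 WT replicate 3, the library named WT.

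The other 7 members kept direction and call in 851 of 910 values, 8 gained a call and 51 changed sign without a call in either fit. For Bloc1s6 in cDC2 Xbp1-Ire1 KO against WT, at −0.0024, the value was 0.0055 with DESeq2, 0.0056 with its size factors, 0.0026 without a filter, 0.0046 with the stricter filter, 0.00088 with the compared groups alone, 0.0186 with limma and 0.16 with the libraries named WT. For Snapin in cDC1 Xbp1-Ire1 KO against WT, at 0.0042, it was −0.00038 without a filter, −0.0019 with the compared groups alone and −0.24 with the library named WT.

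With WT libraries named WT alone, cDC1 Xbp1 KO differed by −0.22 for Bloc1s2, 0.092 for Bloc1s3, 0.11 for Bloc1s5, 0.15 for Dtnbp1 and −0.14 for Snapin, and cDC1 Xbp1-Ire1 KO by 0.44 for Bloc1s3. In cDC2, Dtnbp1 differed by −0.023 in Xbp1 KO, and Bloc1s4 by 0.0087 and Snapin by −0.019 in Xbp1-Ire1 KO. With fl-fl libraries alone, Dtnbp1 differed by −0.022 in cDC1 and 0.052 in cDC2 Xbp1-Ire1 KO, and Bloc1s5 by 0.037 and Snapin by 0.019 in cDC2 Xbp1 KO.

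Leaving out single libraries gave these ranges where a sign changed. In cDC1 Xbp1 KO against WT they were −0.034 to 0.29 for Bloc1s2 and −0.093 to 0.021 for Bloc1s5. In cDC1 Xbp1-Ire1 KO against WT they were −0.022 to 0.26 for Dtnbp1 and −0.092 to 0.14 for Snapin, and against Xbp1 KO −0.084 to 0.17 for Bloc1s4 and −0.17 to 0.013 for Bloc1s6. In cDC2 they were −0.21 to 0.033 for Bloc1s5 in Xbp1 KO, and −0.073 to 0.088 for Bloc1s6, −0.16 to 0.041 for Dtnbp1 and −0.0053 to 0.27 for Snapin in Xbp1-Ire1 KO, all against WT. Between WT cells they were −0.012 to 0.46 for Bloc1s3 and −0.018 to 0.19 for Bloc1s5.

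Outside the complex, 42 called results gave 721 values, of which 71 lost the call and 0 changed sign. Over all genes, the 1270 calls in cDC1 Xbp1 KO against WT became 1819 with DESeq2, 2926 with fl-fl libraries alone and 345 with the library named WT alone. The 880 in cDC1 Xbp1-Ire1 KO ran from 430, without Xbp1-Ire1 KO replicate 1, to 1966, with fl-fl libraries alone, the 12 and 3 in cDC2 rose to 740 and 485 with fl-fl libraries alone, and DESeq2 called 426, 467 and 464 in the interactions in place of 264, 272 and 261. Without cDC1 Xbp1-Ire1 KO replicate 1, 170 genes were called in the second of these. Between the knockouts the counts ran from 648, without Xbp1 KO replicate 2, to 2400, without WT replicate 3, in cDC1, with 1437 called, and from 2 to 11 in cDC2, with 4 called. The cause of these changes was not tested. At 24 to 34 counts, depth limits the Bloc1s1 level in cDC1 Xbp1 KO to the intervals given.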
